A study of Saccharomyces cerevisiae with 3 samples.

Results

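The CCR4-NOT complex is represented on these arrays by 9 genes, CDC39, CDC36, NOT3, NOT5, MOT2, CCR4, POP2, CAF40 and CAF130, of the 5325 genes named by the array's annotation. The members were taken by gene name as the subunits of the complex, and all 9 had at least 1 measured spot on each array. They carried 68 of the 18794 named spots. The study used a variomics library of Saccharomyces cerevisiae, in which each strain carries sequence variants of 1 gene and is marked by short DNA tags. A pool of strains for essential genes was sporulated, grown in selective medium and exposed to cycloheximide, rapamycin or tunicamycin, and the tags of the selected cells (Cy5) were compared on a two-colour tag array with those of the untreated pool (Cy3). The design comprised 3 arrays, 1 for each drug, with no replicate, so no p-value is given and each SD below is between the spots of a gene on 1 array. Cycloheximide stalls elongating ribosomes, rapamycin acts on TOR kinase in complex with Fpr1, and tunicamycin blocks N-glycan synthesis at its first enzyme, Alg7. The sample descriptions name the rapamycin sample as "single" and the other samples as pool, with no explanation, so the kind of selection and the drug cannot be told apart for that array. They also give an amount for each sample, in ng for cycloheximide and rapamycin and in an unexplained unit for tunicamycin. The amounts differ, so amount and drug cannot be told apart either.

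CCR4-NOT shortens the poly(A) tails of messenger RNAs, the first step of most mRNA decay in yeast, and was also found genetically as a regulator of transcription. CDC39 (also called NOT1) is the scaffold on which the other subunits assemble, and CDC36 (NOT2) joins NOT3 or NOT5 in a module at the end of that scaffold. MOT2 (NOT4) is a RING-type ubiquitin ligase, CCR4 and POP2 (CAF1) are the deadenylases, and CAF40 and CAF130 are further subunits bound to the scaffold. Loss of CDC39 or CDC36 is lethal in standard laboratory strains, whereas strains lacking other subunits can be recovered. The sources used here do not list which strains were in the pool, so a value near background for another subunit does not show how its variants respond to a drug.

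Spot values below are log2 ratios, drug-selected to untreated DNA, from which the median of the array was subtracted, and the value of a gene is the mean of its measured spots. Which channel was the numerator is not recorded with the values. It was taken to be Cy5, so the sign is likely and not certain. With the ratio turned, every value below changes its sign, depleted genes would be enriched ones and the lowest ranks the highest. Most named genes are not essential, and 0 is therefore the level of background spots. Gene values of each array were scaled by their median absolute deviation, expressed as an SD and called the spread unit here, which was 0.924 for cycloheximide, 1.06 for rapamycin and 0.914 for tunicamycin. A gene is called depleted below when it had at least 2 measured spots, its value lay at least 3 units below 0 and each spot lay at least 2 units below 0, and enriched when the same held above 0. This is a rule of size and not a test. The arrays held 18680, 19558 and 19098 measured spots for cycloheximide, rapamycin and tunicamycin. Precision is limited by the number of arrays, 1 per drug, and by the 2 spots each of CDC39 and CDC36. The spot values of pairs of arrays had correlations of 0.51 to 0.62 over at least 16089 shared spots, all above 0.

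CDC36 lay far below background after each selection, CDC39 did so under cycloheximide and rapamycin and less far under tunicamycin, and the 7 other subunits lay near background on every array. Under cycloheximide and rapamycin both CDC39 and CDC36 were called depleted, and under tunicamycin only CDC36 was. Neither was called under cycloheximide at the stricter threshold of 4 units or with spots at whole-number ratios left out, where 8.27% and 0.416% of all genes tested were depleted. None of the 7 other subunits was called depleted or enriched on any array. Of the members with at least 2 measured spots, 2 of 8 were depleted under cycloheximide, where 15.2% of all genes tested were. Under rapamycin it was 2 of 8 against 6.45% of all genes, and under tunicamycin 1 of 9 against 13.6%. Enriched members numbered 0 on each array, where 0.0485%, 0.0747% and 0.12% of all genes tested were enriched under cycloheximide, rapamycin and tunicamycin. With so few genes enriched anywhere, the 0 says little about these members.

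**Figure D1:**
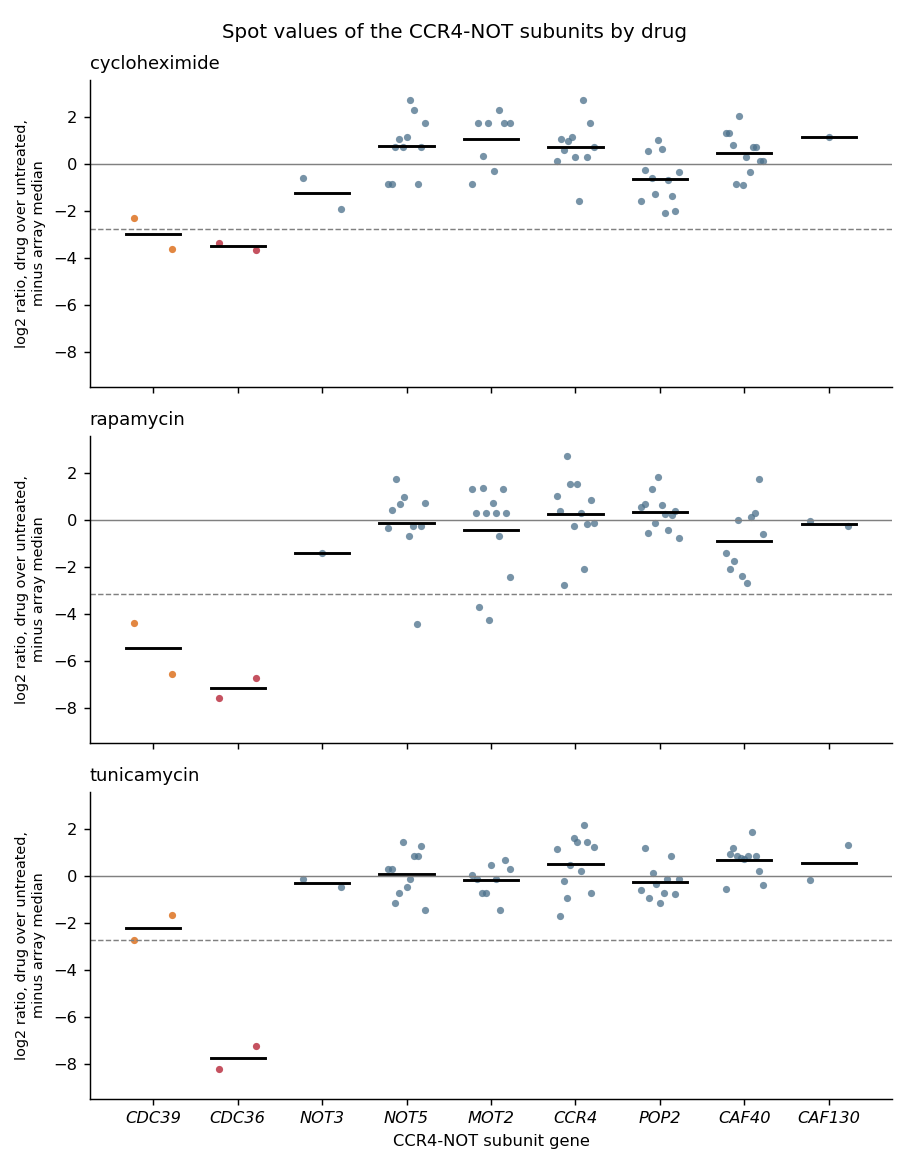
Each point is 1 measured spot of a CCR4-NOT subunit, as the log2 ratio of drug-selected over untreated DNA minus the array median (vertical axis), with 1 panel per drug. Black bars are gene values, the dashed line is 3 spread units below 0, and CDC39 and CDC36 are coloured. The CDC36 spots lie between -7.26 and -8.23 under tunicamycin, while the CDC39 spots lie at -2.74 and -1.68.

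CDC36, whose product links the scaffold to the NOT proteins, had spots at -3.35 and -3.68 under cycloheximide, at -7.58 and -6.73 under rapamycin, and at -8.23 and -7.26 under tunicamycin. Its spots lay within about 1 log2 unit of each other on each array, and the cycloheximide spots lay above those of both other arrays. The gene value was -3.52 ± 0.23 (SD, n = 2) under cycloheximide, which is 11.4-fold lower than the array median. It was -7.16 ± 0.61 (n = 2) under rapamycin, 143-fold lower, and -7.75 ± 0.69 (n = 2) under tunicamycin, 215-fold lower. On the tunicamycin array this was the 7th lowest value of 5232 genes measured. It was the 308th lowest of 5110 under rapamycin and the 472nd lowest of 5192 under cycloheximide. The deposited ratios of CDC36 before centring were -8.91 and -8.05 under rapamycin and -9.11 and -8.13 under tunicamycin. The lowest ratios on those arrays were -10.00 and -9.98. The order of genes this low may be bounded by a lower edge of the ratios, which was not tested. The fold rests on the signal of both channels, which was not analysed here.

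CDC39, the scaffold itself, had spots at -2.30 and -3.63 under cycloheximide, at -4.37 and -6.58 under rapamycin, and at -2.74 and -1.68 under tunicamycin. It was lowest under rapamycin, and its cycloheximide and tunicamycin spots overlapped. The gene value was -2.96 ± 0.94 (n = 2) under cycloheximide, 7.80-fold lower than the array median. It was -5.47 ± 1.56 (n = 2) under rapamycin, 44.4-fold lower, and -2.21 ± 0.75 (n = 2) under tunicamycin, 4.62-fold lower. The tunicamycin value did not reach the limit of -2.74 for a call, and the higher of its spots lay above the limit of -1.83 for single spots. CDC39 was depleted on this array without centring, where 15.3% of all genes tested were. It was also depleted when the spread unit was taken from a list of non-essential genes, where 14.8% were. Under cycloheximide its value of -2.96 stood just past the limit of -2.77, and it was also not called with the coded spots kept.

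The essential pair differed from each other mainly under tunicamycin. The log2 difference, CDC36 minus CDC39, was -0.55 under cycloheximide, where the spots of the genes overlapped. It was -1.68 under rapamycin, where the nearest spots were 0.15 apart, which is less than the SD of either gene. Under tunicamycin the difference was -5.54, with CDC36 46.5-fold lower, and the nearest spots were 4.52 apart. That gap exceeds the SD between spots of each gene several times, but it comes from 1 array and could not be set against a replicate. Over the 3 arrays the Euclidean distance between the values of CDC36 and CDC39 was 5.82, and 534 of 4899 genes lay nearer to CDC36 than CDC39 did.

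NOT3 and NOT5 are the paralogous partners of CDC36 in the NOT module. NOT3 had spots at -0.59 and -1.90 under cycloheximide and at -0.13 and -0.45 under tunicamycin, and its only measured spot under rapamycin stood at -1.41. With a value of -1.24 ± 0.93 (n = 2) under cycloheximide it was the lowest of the subunits other than CDC39 and CDC36 on that array, and with -1.41 (n = 1) also on the rapamycin array. In spread units its values were -1.34, -1.33 and -0.31 under cycloheximide, rapamycin and tunicamycin. NOT5 carried 12 spots, of which 11, 10 and 11 were measured under cycloheximide, rapamycin and tunicamycin. Its cycloheximide spots ranged from -0.85 to 2.74 with a median of 0.74, its rapamycin spots from -4.44 to 1.74 with a median of 0.09, and its tunicamycin spots from -1.45 to 1.46 with a median of 0.29. The gene values of NOT5 were 0.79 ± 1.24, -0.14 ± 1.68 and 0.11 ± 0.97, each within its SD of 0.

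MOT2, the ubiquitin ligase, had 8, 12 and 9 measured spots of 12 under cycloheximide, rapamycin and tunicamycin. Its cycloheximide spots ranged from -0.85 to 2.32 with a median of 1.74, and its value of 1.06 ± 1.16 was the highest of the subunits on that array after CAF130. Under rapamycin its spots ranged from -4.26 to 1.39 with a median of 0.32, and 3 of the 12 spots, at -4.26, -3.70 and -2.41, lay more than 2 units below 0. The other spots of MOT2 on that array lay around 0, so the value of -0.42 ± 1.96 rests on a minority of low spots. Under tunicamycin the value was -0.19 ± 0.67 with spots between -1.45 and 0.67. One more cycloheximide spot of MOT2 held 16.61, a code that stands on 739 spots of that array and was left out. With that spot kept as a ratio the value was 2.82, and MOT2 was not called enriched then either.

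The deadenylases lay at background under each drug. CCR4, the main catalytic subunit, had cycloheximide spots from -1.59 to 2.74 with a median of 0.74 (11 spots), rapamycin spots from -2.76 to 2.74 with a median of 0.35 (12 spots) and tunicamycin spots from -1.71 to 2.20 with a median of 0.81 (12 spots). Its gene values were 0.75 ± 1.07, 0.25 ± 1.53 and 0.52 ± 1.20. POP2, the DEDD-type nuclease that joins CCR4 to the scaffold, had cycloheximide spots from -2.07 to 1.03 with a median of -0.62 (12 spots), rapamycin spots from -0.76 to 1.84 with a median of 0.34 (12 spots) and tunicamycin spots from -1.13 to 1.20 with a median of -0.35 (11 spots). Its gene values were -0.66 ± 1.04, 0.34 ± 0.76 and -0.23 ± 0.73. The spots of CCR4 and POP2 overlapped on each array. The mean of the 2 deadenylases was 0.05 under cycloheximide, 0.30 under rapamycin and 0.15 under tunicamycin. The mean of CDC39 and CDC36 was lower than that of the deadenylases, with log2 differences of -3.29, -6.61 and -5.12 in the same order. Under tunicamycin that mean lay far from both genes, CDC36 at -7.75 and CDC39 at -2.21.

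CAF40 and CAF130, the accessory subunits, were also near background. CAF40 had cycloheximide spots from -0.89 to 2.06 (12 spots), rapamycin spots from -2.70 to 1.74 (10 spots) and tunicamycin spots from -0.54 to 1.87 (11 spots), with gene values of 0.46 ± 0.89, -0.87 ± 1.42 and 0.68 ± 0.69. Its rapamycin value lay below those under the other drugs, by less than the SD of its spots on the rapamycin array for cycloheximide and by slightly more for tunicamycin. CAF130 had a single measured cycloheximide spot at 1.15, rapamycin spots at -0.26 and -0.03, and tunicamycin spots at -0.19 and 1.34. Its values of 1.15 (n = 1), -0.14 ± 0.17 (n = 2) and 0.58 ± 1.08 (n = 2) were the highest, the fourth highest and the second highest of the 9 members.

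The order of the members separated CDC39 and CDC36 from the rest on each array, and among the 7 others the spots of neighbours in the order overlapped or lay within each other's range. From end to end of that order the spots of NOT3 and the only spot of CAF130 were apart under cycloheximide. Under rapamycin the only NOT3 spot (-1.41) lay below every spot of POP2, the lowest of which was -0.76. It also lay below the CAF130 spots. The mean value of CDC39 and CDC36 was -3.24 under cycloheximide against 0.33 for the mean of the 7 others, a log2 difference of -3.57 and a ratio of 11.9. It was -6.32 against -0.34 under rapamycin, a difference of -5.97 and a ratio of 62.8, and -4.98 against 0.17 under tunicamycin, a difference of -5.15 and a ratio of 35.4. The tunicamycin mean averages CDC36 at -7.75 and CDC39 at -2.21, so it describes neither gene alone. The higher of CDC39 and CDC36 lay 1.72, 4.07 and 1.92 below the lowest of the other members on the 3 arrays. Single spots overlapped more than gene values did. Under cycloheximide each spot of CDC39 and CDC36 lay below every spot of the others, but under rapamycin the lowest NOT5 spot (-4.44) lay below the higher CDC39 spot (-4.37), and under tunicamycin the lowest CCR4 spot (-1.71) lay below the higher CDC39 spot (-1.68). Over the 3 arrays 11 of the 12 spots of CDC39 and CDC36 lay at least 2 units below 0. Of the 174 measured spots of the other subunits 10 did, with 3 of 57 on the cycloheximide array, 7 of 59 on the rapamycin array and 0 of 58 on the tunicamycin array. Among all named spots the shares were 12.5%, 14.3% and 12.3%.

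Many deposited values matched, within 3 decimals, a quotient of small integers (1 to 10) on the log2 scale, and such values made up 66.5% of the measured spots under cycloheximide, 41.0% under rapamycin and 64.3% under tunicamycin. Of the 174 measured spots of the subunits other than CDC39 and CDC36, 107 had such a value. The lowest possible one is a ratio of 1 to 10, below which most spots of CDC39 and CDC36 lay, so these values cannot be compared between the pair and the others. All 12 possible spots of CDC39 and CDC36 were measured, and 174 of 192 of the others. CDC39, CDC36, NOT3 and CAF130 each had 2 spots on the array, as 4439 genes did, and NOT5, MOT2, CCR4, POP2 and CAF40 each had 12, as 781 genes did. The annotation does not say how the 12 spots of a gene relate to each other, so they may share a tag.

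The change of CDC36 between drugs was compared with that of other essential genes, the 41 measured genes of the lists of exosome with 3′ end processing and of TFIID with regulators of the TATA-binding protein TBP. The value of CDC36 under tunicamycin minus that under cycloheximide was -4.23. In these lists the same difference ranged from -3.57 to 2.13 with a median of -0.85, so none of the 41 genes shifted as far down as CDC36. Among all 5107 genes measured on both arrays 29 had a lower difference than CDC36. For CDC39 this difference was 0.76, and 3 of the 41 genes had a higher difference. From cycloheximide to rapamycin CDC36 shifted by -3.64 and CDC39 by -2.51, near the median of -3.41 of the 34 genes of these lists measured on both arrays. From rapamycin to tunicamycin CDC36 shifted by -0.59, less than the SD of its spots on the tunicamycin array, and CDC39 by 3.27, where the 34 genes had a median of 1.79. Of these 34 genes 4 had a lower difference than CDC36 and 10 a higher one than CDC39. Listed genes with no measured rapamycin spot are absent from these 34. Both comparisons with rapamycin therefore hold for the measured genes only. The values of CDC36 under the 3 drugs come from 3 separately selected and hybridised samples, and the range of ratios differed between arrays, so these differences hold differences between arrays as well as between drugs. Quantile normalization of the arrays put CDC36 at -4.32, -5.97 and -7.24 and CDC39 at -3.46, -4.85 and -2.37 under cycloheximide, rapamycin and tunicamycin. The shift of CDC36 from cycloheximide to tunicamycin was then smaller, and that from rapamycin to tunicamycin larger, than given above. The sizes of these shifts therefore depend on the normalization, and those of the listed genes were not computed with it.

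**Figure D2:**
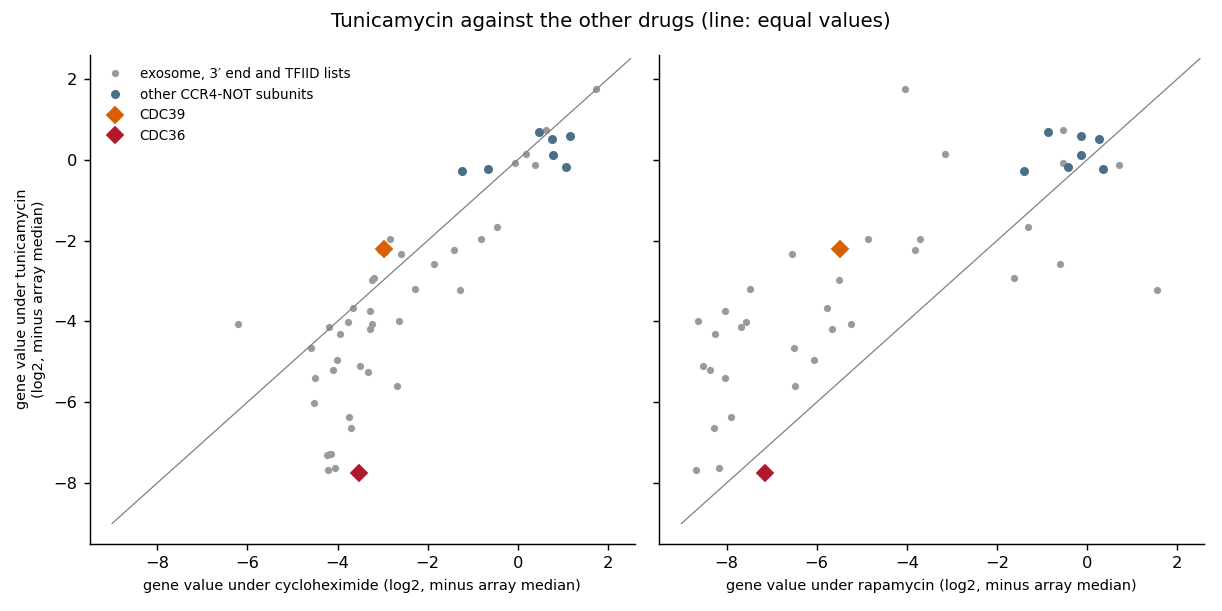
Gene values (log2 ratio minus array median) under tunicamycin on the vertical axis are plotted against cycloheximide (left) and rapamycin (right), for the CCR4-NOT subunits and the lists of exosome with 3′ end processing and TFIID genes. The grey line marks equal values. CDC36 at -3.52 and -7.75 lies further below the line in the left panel than any listed gene, and CDC39 at -2.96 and -2.21 lies above it.

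Genes that act with CCR4-NOT were examined as lists. Of the mRNA decay list, which holds the PAN2-PAN3 deadenylase, decapping factors, the LSM ring, the exonuclease XRN1, the SKI proteins and nonsense-mediated decay factors and is not limited to essential genes, the cycloheximide array had 2 of 22 genes depleted, the rapamycin array 2 of 26 and the tunicamycin array 3 of 24, with 0 enriched. These shares of 9.09%, 7.69% and 12.5% stand beside 15.2%, 6.45% and 13.6% over all genes tested. Its medians were 0.30, -0.32 and 0.13, against -0.04, -0.21 and -0.09 over all genes. The depleted members were LSM4 (-3.18 ± 1.36) and LSM5 (-2.90 ± 0.79) under cycloheximide, PAB1 (-8.15 ± 0.14) and DCP2 (-6.62 ± 2.03) under rapamycin, and LSM4 (-6.74 ± 2.95), PAB1 (-6.47 ± 1.39) and LSM5 (-4.15 ± 3.09) under tunicamycin, each with n = 2. PAB1 encodes the poly(A)-binding protein, DCP2 the decapping enzyme, and LSM4 and LSM5 encode ring proteins shared with pre-mRNA splicing. Under tunicamycin DCP2 had -4.22 ± 4.96, and its spots differed too much for a call. DCP2 had -1.97 ± 0.19 under cycloheximide and LSM4 had -6.97 in its only measured rapamycin spot, and neither was called.

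The list of CCR4-NOT partners holds associated proteins, RNA-binding recruiters of the complex, and the ubiquitin-conjugating enzymes and substrates of MOT2. Of its members 0 of 8, 1 of 8 and 0 of 8 were depleted under cycloheximide, rapamycin and tunicamycin, beside the same 15.2%, 6.45% and 13.6% over all genes, and 0 were enriched, with medians of 0.47, -0.26 and 0.35. CAF16, an ABC-type protein reported to bind the complex, was the depleted one, at -4.09 ± 0.07 (n = 2) under rapamycin. CAF16 had no measured spot under cycloheximide or tunicamycin, so it could not be called there. CAF120, another associated protein, had 2.11 ± 0.29 (n = 2) under rapamycin and 1.87 (n = 1) under tunicamycin. EGD1, a subunit of the nascent polypeptide-associated complex, had -1.06 ± 1.12 (n = 2) and JHD2, a histone demethylase and substrate of MOT2, 1.21 (n = 1) under cycloheximide, and JHD2 had -1.37 ± 0.34 (n = 2) under tunicamycin. UBC5, a ubiquitin-conjugating enzyme, stood at 0.95 ± 1.70 with cycloheximide (n = 8) and at 0.82 ± 1.11 with tunicamycin (n = 11), and PUF3, an RNA-binding recruiter, had -0.71 (n = 1) under rapamycin. None of these 5 was called.

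Set beside essential genes of RNA processing and transcription, CDC36 and CDC39 stood at different places. In the list of exosome and mRNA 3′ end processing genes the depleted genes numbered 15 of 25 (cycloheximide), 6 of 11 (rapamycin) and 14 of 23 (tunicamycin), which are 60%, 54.5% and 60.9% against 15.2%, 6.45% and 13.6% over all genes, with medians of -3.23, -6.48 and -4.02. RRP43 of the exosome was the lowest under cycloheximide at -4.59 ± 1.23, with the 3′ end factors HRP1 at -4.53 ± 1.10 and YTH1 at -4.23 ± 1.24. Under tunicamycin the lowest were YTH1 at -7.30 ± 0.51, MPE1, another cleavage and polyadenylation factor, at -7.29 ± 1.04 and the exosome ring protein MTR3 at -7.28 ± 0.39, each with n = 2. Under rapamycin CFT2 (-8.64), PAP1, the poly(A) polymerase (-8.51), and CSL4 (-8.26) were the lowest, each in a single spot. Genes with fewer than 2 measured spots could not be called, which leaves CFT2, PAP1 and CSL4 out of the 11 tested. The rapamycin share of each list in this paragraph therefore rests on only a part of the list. In the list of TFIID and TBP regulators, chosen because NOT genes have been described as regulators of TATA-less transcription, 11 of 15, 4 of 8 and 9 of 15 were depleted (73.3%, 50% and 60% against the same shares over all genes), with medians of -3.50, -5.63 and -3.87. Its lowest members were TAF6 at -6.20 ± 1.81, TAF5 at -4.51 ± 0.94 and NCB2 at -4.21 ± 1.20 under cycloheximide, NCB2 at -8.67 (n = 1), TAF9 at -8.37 ± 0.31 and TAF3 at -8.29 (n = 1) under rapamycin, and NCB2 at -7.69 ± 0.56, SPT15, which encodes TBP, at -7.63 ± 0.59 and TAF3 at -6.63 ± 0.88 under tunicamycin, with n = 2 where no other n is given.

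Over both lists together the genes below CDC36 numbered 17 of 41 (cycloheximide), 13 of 34 (rapamycin) and 0 of 41 (tunicamycin). For CDC39 it was 25 of 41, 21 of 34 and 33 of 41. CDC36 thus lay near the middle of these genes under cycloheximide and below all of them under tunicamycin. There NCB2 was the nearest, 0.06 higher and within the SD of either gene. CDC36 also lay near the middle of the 34 genes measured under rapamycin. These lists lost a larger share of their spots on that array than on the others, and than all genes did. RRP46, MTR3, YTH1, MPE1, HRP1, TAF6 and BUR6 had no measured rapamycin spot. Their values were -3.07 to -6.20 under cycloheximide and -2.23 to -7.30 under tunicamycin. The rapamycin ranks of CDC36 and CDC39 therefore hold for the measured genes only. CDC39 lay in the upper part under tunicamycin. In the amino acid and adenine synthesis list 0 of 39, 0 of 45 and 0 of 36 genes were called, and the medians were -0.02, 0.10 and 0.21. Its largest values were TRP4 at 2.32 (n = 1), LYS14 at 1.74 (n = 1) and TYR1 at 1.53 ± 1.12 under cycloheximide, TRP4 at -2.81 ± 2.18, LYS14 at -2.37 ± 2.40 and ADE1 at 2.04 (n = 1) under rapamycin, and SER1 at -2.45 (n = 1), MET22 at 1.30 ± 1.64 and ARG4 at 1.29 (n = 1) under tunicamycin. The values of the 7 other CCR4-NOT subunits, from -1.41 to 1.15, lay within the range of this list on each array. Under tunicamycin CDC39 at -2.21 lay within that range too, above the single spot of SER1.

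**Figure D3:**
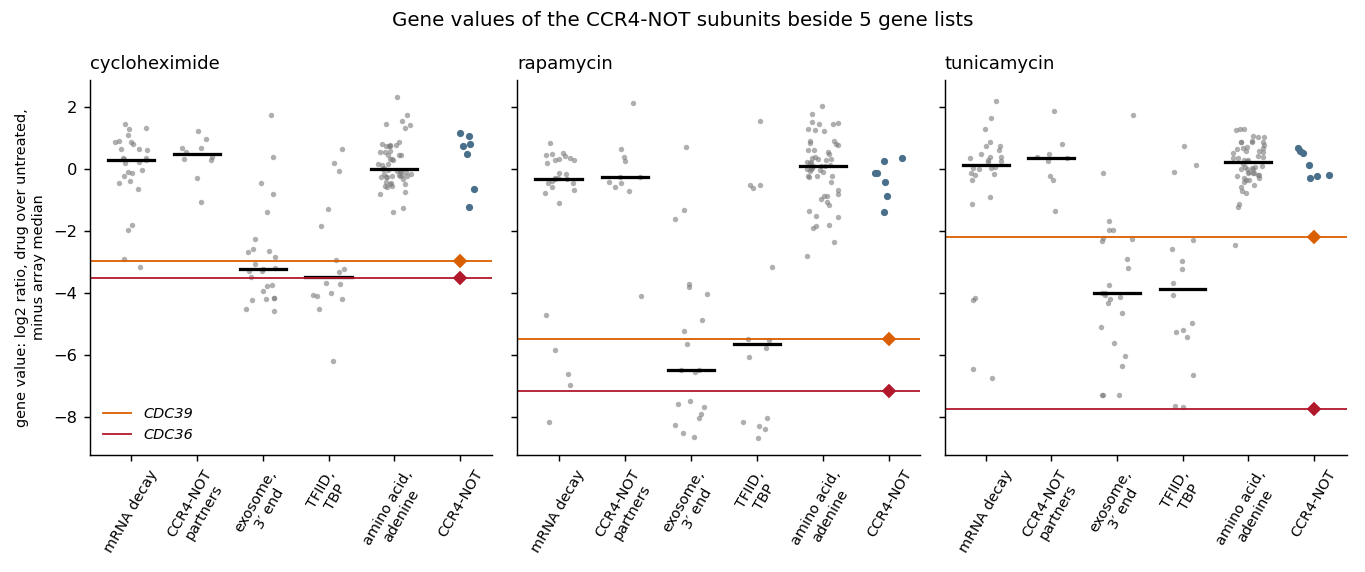
Each grey point is the gene value (log2 ratio minus array median) of 1 gene of the list named below it, black bars are list medians, and 1 panel is drawn per drug. Horizontal lines and diamonds mark CDC39 and CDC36, and blue points the 7 other subunits. Under tunicamycin the CDC36 line at -7.75 lies below every point of the 5 lists.

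The genes next to CDC36 and CDC39 on the chromosome were examined because tags of neighbouring genes can be compared without choosing them by value. FAP7, an adenylate kinase of 40S subunit assembly, precedes CDC36, and CDC9, the DNA ligase, follows it. FAP7 had spots at -3.66 and -3.18 under cycloheximide, -8.09 and -6.00 under rapamycin, and -5.13 and -3.21 under tunicamycin, and was called depleted on the 3 arrays with values of -3.42 ± 0.34, -7.04 ± 1.48 and -4.17 ± 1.35. The cycloheximide value of CDC9 was -3.74 ± 1.02 (n = 2) and its tunicamycin value -5.98 ± 2.75 (n = 2), both called, and it had -6.68 in its only measured rapamycin spot. FAP7 and CDC9 are also essential genes, and under tunicamycin the CDC9 spots at -7.92 and -4.04 spanned the higher spot of CDC36 while both FAP7 spots lay above the CDC36 spots. Next to CDC39 lie MSH3, a mismatch repair gene, and CDC50, which encodes a partner of a phospholipid flippase. MSH3 had 1.32 (n = 1), 0.10 ± 0.71 (n = 2) and 0.19 (n = 1) under cycloheximide, rapamycin and tunicamycin, and CDC50 had 0.54 ± 1.69 (n = 2), -1.12 (n = 1) and -0.37 ± 2.38 (n = 2). Neither was called, and the gene value of CDC39 lay below both on every array. Single spots overlapped under tunicamycin, where the lower CDC50 spot (-2.05) lay below the higher CDC39 spot (-1.68).

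**Figure D4:**
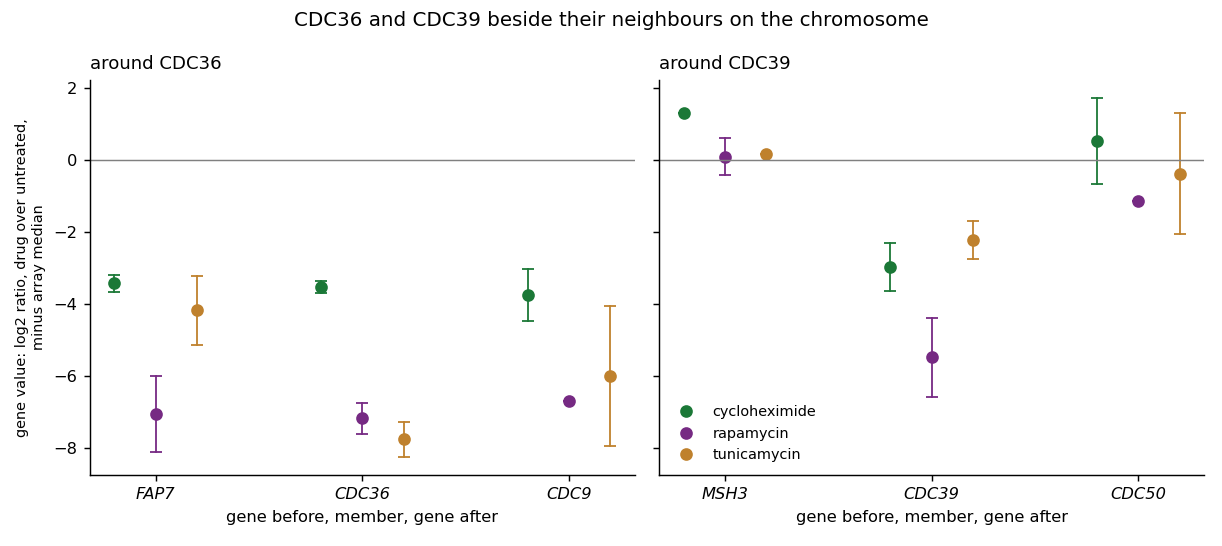
Gene values (log2 ratio minus array median) of CDC36 (left) and CDC39 (right) are drawn with the gene before and after each on the chromosome, coloured by drug. Points are gene values and vertical lines run from the lowest to the highest spot of the gene. The gene values of the neighbours of CDC36 lie between -3.42 and -7.04, and those of the neighbours of CDC39 between -1.12 and 1.32.

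Genes with the pattern most like that of CDC36 and CDC39 were taken as the 5 with the smallest Euclidean distance over the gene values of the 3 arrays, among 4899 genes measured on all of them. For CDC36 these were KRE33, an RNA acetyltransferase of ribosome assembly (distance 0.32), PGA3, a cytochrome b5 reductase family protein (0.47), ERG20, the farnesyl pyrophosphate synthase (0.51), SRB6, a Mediator subunit (0.72), and MYO1, the type II myosin of cytokinesis (0.73). KRE33 had -3.55, -7.20 and -7.43 under cycloheximide, rapamycin and tunicamycin, with 1 spot under tunicamycin. ERG20 also had 1 measured spot under tunicamycin, and PGA3 and SRB6 had 1 each under rapamycin. For CDC39 they were TAF1, the largest TFIID subunit (0.09), SDS23 (0.14), GCD1, a subunit of the eIF2B exchange factor (0.32), YHR020W, a prolyl-tRNA synthetase (0.38), and IPL1, the Aurora kinase (0.46). TAF1 had -2.95, -5.50 and -2.29, but its rapamycin spots had an SD of 3.79. GCD1 had 1 measured rapamycin spot. Distances this small lie within the SD between the spots of CDC39 on each array, and for CDC36 they are of the size of its SD, so the order among the 5 is not resolved.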

How the data were processed

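DNA tags of an essential-gene variomics pool were measured on 3 two-colour arrays, 1 per drug. The authors deposited 1 log2 ratio per spot for 22575 spots. Base 2 was inferred from the values, and no source used here names the scanner, its software or any correction. The deposited values were not centred, with medians of -0.74 (cycloheximide), -1.32 (rapamycin) and -0.87 (tunicamycin). The value 16.61, the log2 of 100000, stood on 739, 196 and 526 spots. It was read as a code and left out with 3156, 2821 and 2951 empty values. Probes were named through a platform annotation, and 5321 of 5325 genes matched the RefSeq gene table of assembly R64, used for symbols and gene order only.

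From these values the array median was subtracted and measured spots of a gene were averaged (Python 3.11.15, pandas 2.3.3). The call rule was tested on simulated data. Listed genes are named by rule: per list and array the 3 largest absolute values, plus those called in the mRNA decay and partner lists. Chromosome neighbours and the 5 nearest patterns are named for CDC36 and CDC39. TAF1 and NCB2 are named again beside results that turn on them. The members and lists were chosen with earlier results of these data known. The 9 alternatives changed centring, the code, the probe summary, spots at whole-number ratios, normalization, spread unit, threshold and the number of probes.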

Additional observations from a re-analysis of the deposited data

How the results depend on the processing

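No paired analysis was possible because each drug has 1 array. The log2 difference between the mean of CDC39 and CDC36 and the mean of the other measured subunits was below 0 under each of the 6 alternatives that change values, between -3.18 and -4.17 for cycloheximide, -5.17 and -6.11 for rapamycin and -4.91 and -5.26 for tunicamycin. With whole-number ratio spots left out, CAF130 had no spot under cycloheximide, and NOT3 and NOT5 had none under tunicamycin. The mean of the others then rested on fewer subunits. That alternative gave the -3.18 and the -5.26. The alternatives without centring and with centring on the non-essential list shift all spots of an array alike. They cannot change this difference and say nothing about its stability. None of the called members changed its direction, and no member was called enriched under any of the 9 alternatives. Of the 2 depleted members under cycloheximide 0 remained at the stricter threshold, 0 with whole-number ratio spots left out and 1 (CDC36) with coded spots kept. Leaving out whole-number spots raised the spread unit of that array from 0.924 to 1.64, and over all genes 6 of 1442 were then depleted, against 625 of 4121. Under tunicamycin 2 members in place of 1, CDC39 being added, were depleted without centring and with the spread unit of the non-essential list. The shares over all genes tested were then 15.3% and 14.8%, in place of 13.6%. Over all genes the depleted count under cycloheximide was 341 at the stricter threshold, and under rapamycin it was 259, with 399 without centring and 599 when 1 measured spot sufficed, while enriched genes numbered 0 to 12, 1 to 9 and 4 to 14 for cycloheximide, rapamycin and tunicamycin. The 2 depleted members under rapamycin were called under each alternative. The median over the 9 members under rapamycin was -0.42, and -1.74 without centring, which adds the array median back. Of the values of single members, 17 of 159 moved by more than the SD between their spots, or 1 spread unit for members with a single spot, 11 of them without centring. Signal over background was not analysed here, so the depth of the lowest ratios is limited by an unknown amount.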
